A study of Mus musculus with 12 samples.

Results

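Translation factors are the proteins that start, carry forward and end protein synthesis on the ribosome. Their transcripts, 48 listed genes of 21492 in the table, were followed in striatal tissue from C57BL/6J males aged 70 days after birth, and all 48 were found in the table by symbol. The list holds the initiation factors eIF1 to eIF6, the elongation factors eEF1 and eEF2 with the eEF2 kinase, the release factors Etf1 and Gspt1, and the poly(A)-binding protein Pabpc1. The 4 groups were wild-type (WT) synaptosomal input RNA, WT synaptosomal polysome RNA, and the same pair of fractions from mice labelled Shank3 TG, with 3 libraries each. Synaptosomes are pinched-off nerve terminals with adhering postsynaptic membrane, and polysomes are transcripts that carry several ribosomes. Shank3 is a scaffold gene of the excitatory postsynaptic density. The sources used here do not give the promoter of the transgene or the number of animals behind a library. They also do not state that a group's libraries stem from different animals, so the spread behind each p-value may be partly technical.

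Initiation begins when eIF1, eIF1A, eIF3, eIF5 and eIF2 with its initiator tRNA bind the small ribosomal subunit, and eIF2B recharges eIF2 with GTP. The cap complex eIF4F (eIF4E, eIF4G and the helicase eIF4A, helped by eIF4B and eIF4H) brings in the mRNA, and Pabpc1 links the poly(A) tail to eIF4G. eIF5B joins the subunits, eEF1A delivers aminoacyl-tRNA, eEF2 moves the ribosome along, and Etf1 with Gspt1 releases the finished chain. In neurons these steps also take place in dendrites and near synapses, where eIF2, eIF4E and eEF2 are known points of control. Several of these factors have transcripts with a terminal oligopyrimidine (TOP) motif, a C followed by a run of C and T letters at the start of the mRNA, which ties their own translation to mTORC1 and to the binding protein LARP1.

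Values below are the authors' normalized counts per gene, given for the libraries numbered 1, 2 and 3 in that order. Differences are log2 differences of the value plus 1, with their standard error (SE). A gene is called when its adjusted p is under 0.05 (limma, Benjamini-Hochberg over all genes tested). Where a p with the library number as a block is given, the SE printed is still that of the fit without the block. The blocked fit has its own SE, which is not printed. Depth was estimated at 62.4 to 85.9 M reads (input) and 77.0 to 102 M reads (polysome) a library. Mitochondrial ribosomal RNA took 39.1% to 46.8% of the input signal and 23.1% to 34.0% of the polysome signal, and nuclear long noncoding RNAs (8 genes) summed to between 17100 and 30800 in input, against 6870 to 11200 in polysomes. Summed striatal medium spiny neuron markers (10 genes, none at 0) lay at 196000 to 452000 (input) and at 199000 to 507000 (polysome), and 6 astrocyte markers at 337000 to 398000 and 210000 to 354000. Cortical excitatory neuron markers (5 genes) summed to 27500 to 78600 in input and 39600 to 127000 in polysomes. Against input, 2 astrocyte markers had positive and 4 negative differences in WT polysomes, and the cortical markers 1 and 4. All 10 medium spiny neuron markers were higher in TG than in WT in both fractions. All 5 cortical and all 6 presynaptic terminal markers were lower in TG in both fractions, and all 5 blood markers were higher. Oligodendrocyte markers had 6 higher and 0 lower in input, and 5 and 1 in polysomes. Astrocyte markers had 4 higher and 2 lower in each fraction. Microglial markers had 3 and 3 in input and 5 and 1 in polysomes, and endothelial markers 0 and 4, then 2 and 2. No marker of these lists was called between genotypes. The part of these shifts in the results below was not tested. In these bulk samples a lower share of a cell type and less of a transcript per cell cannot be told apart. Shank3 itself ran from 2121 to 5858 in WT and from 5456 to 17500 in TG among the input libraries, and from 1500 to 5848 and from 5012 to 12626 among the polysome libraries, so the WT and TG ranges overlapped in both fractions. Within each number the TG library lay above the WT library, by 1.36, 2.07 and 1.27 on the log2 scale in input and by 1.74, 1.77 and 1.07 in polysomes. Shank3 differed by 1.57 ± 0.49 in input and 1.53 ± 0.52 in polysomes (adjusted p = 1.00 in both), and with the library number as a block the adjusted p was 0.063 and 0.021.

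The promoters of 6 members are shown because the later results split the members by the TOP list. Each window holds 30 bases before and 30 bases after the RefSeq start on GRCm38.p6, on the gene's strand, and the capitals mark each C followed by at least 5 C or T letters. Eef2 (chr10:81176601-81176660, plus strand), Eif4b (chr15:102073743-102073802, plus strand) and Eif3d (chr15:77970795-77970854, minus strand) were called lower in polysomes. Eif2b1 (chr5:124579102-124579161, minus strand) and Eif2b5 (chr16:20498787-20498846, plus strand) were called higher, and Eef1a2 (chr2:181156986-181157045, minus strand) is on the TOP list without a call.
Eef2: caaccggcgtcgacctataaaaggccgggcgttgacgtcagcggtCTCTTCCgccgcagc
Eif4b: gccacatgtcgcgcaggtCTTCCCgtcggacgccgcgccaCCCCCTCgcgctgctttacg
Eif3d: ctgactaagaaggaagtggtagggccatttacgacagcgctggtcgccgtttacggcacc
Eif2b1: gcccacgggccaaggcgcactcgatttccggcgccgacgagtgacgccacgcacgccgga
Eif2b5: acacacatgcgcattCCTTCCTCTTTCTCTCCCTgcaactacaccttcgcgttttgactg
Eef1a2: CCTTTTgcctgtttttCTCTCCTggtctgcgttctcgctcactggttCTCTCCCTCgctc
Of the 48 members, 37 had an entry in the promoter table. The motif stood on the gene's strand in 14 of the 37 (37.8%) and in 40.0% of all 32851 promoters, and on the other strand in 13 (35.1%) and in 44.9%. Among the 13 factors of the TOP list, 8 had an entry and 7 of these held the motif. A match is a description of these letters and not of a transcript's true end: Eif2b5 holds the longest run of the 6 windows shown and is not on the TOP list.

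Per kilobase of exonic length, 3 elongation factor genes had the highest levels of the 48 in WT input. Eef1a1, which encodes the main eEF1A, was first with 49479 ± 8193 normalized counts per kb (SD, n = 3). Its neuronal and muscle counterpart Eef1a2 was second with 15147 ± 2765, followed by Eef2 with 12202 ± 844. The helicase gene Eif4a2 came next at 5898 ± 500, and Eef1g, a subunit of the eEF1B exchange complex, at 3833 ± 485. The means of Eef1a2 and Eef2 differed by little more than the SD of Eef1a2, while Eef1a1 stood clear of both. At the other end were Eif5b at 167 ± 8.14, Eef2k, the kinase that inhibits eEF2, at 139 ± 32.5, and Eif2b3, a subunit of the eIF2B catalytic part, at 74.0 ± 8.19. Levels within the eIF2B complex differed widely, from 74.0 for Eif2b3 to 1050 ± 13.7 for Eif2b5 (normalized counts per kb). The exonic length joins all annotated exons of a gene, so a gene used through a short isoform has a lower level per kb than its transcripts would have.

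**Figure D1:**
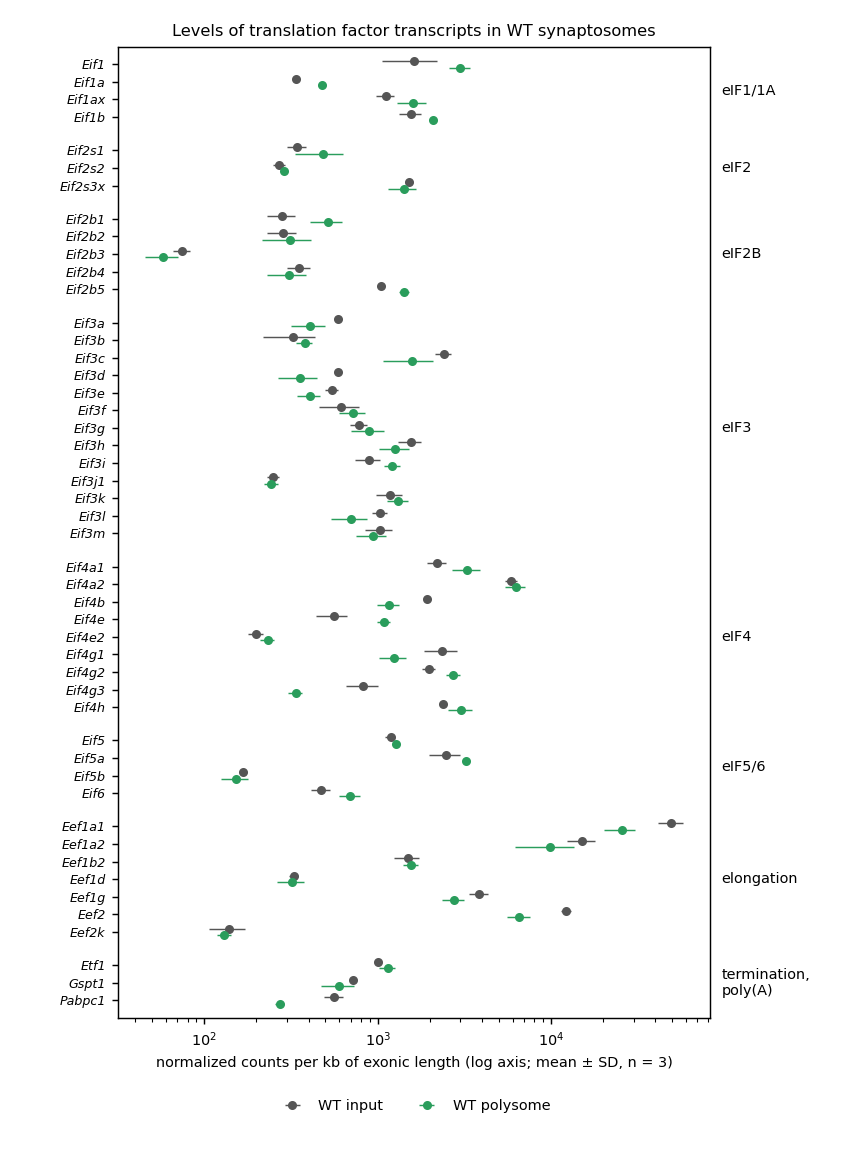
Level of each of the 48 transcripts in WT input (grey) and WT polysome (green) libraries, in normalized counts per kb of exonic length on a log axis. Points are means and bars are SD over 3 libraries. Eef1a1 lies highest in both fractions and Eif2b3 lowest.

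The first comparison asked which of these transcripts stood higher or lower in synaptosomal polysomes than in the synaptosomal input of WT mice. Of the 48 members, 4 were called higher (Eif1a, Eif2b1, Eif2b5 and Eif4e) and 7 lower (Eif3d, Eif4b, Eif4g1, Eif4g3, Eef1a1, Eef2 and Pabpc1). Over all 16962 genes tested, 5.36% were called higher and 8.59% lower (14.0% either way). The members' median difference was 0.077 and that of all genes was 0.026. With the library number as a replicate block, which pairs the input and polysome library of 1 number, 11 members were called higher and 13 lower, beside 13.9% and 15.9% of all genes (29.8% either way). All 3 WT polysome libraries lay above all 3 WT input libraries for 12 members and below them for 13, beside 17.7% and 18.5% of all genes. Rescaling the libraries changed the split to 9 higher and 7 lower (75th percentile) or 7 and 6 (quantile normalization), and that of all genes from 910 higher and 1457 lower to 1381 and 1305 or 1246 and 1461. Without WT input 1, WT input 3, WT polysome 1, WT polysome 2 or WT polysome 3, the members called higher numbered 2, 0, 1, 2 and 1, and without WT polysome 3 those called lower numbered 4. Over all genes, those called higher in these fits numbered 735, 127, 486, 327 and 228 in place of 910. Without WT polysome 3 the genes called lower numbered 584 in place of 1457.

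In Shank3 TG mice 8 members were called higher and 8 lower, beside 8.19% and 9.86% of all genes (18.1% either way). The 4 WT rises were 4 of the 8 TG rises, joined by Eif1ax, Eif3i, Eif4a1 and Eif4h, and the 7 WT falls were 7 of the 8 TG falls, joined by Eif3l. With the replicate block there were 16 higher and 12 lower, beside 16.7% and 16.6% (33.2% either way). The groups stood apart without overlap for 14 members above and 14 below, beside 17.6% and 18.0%. Without TG input 2, TG input 3 or TG polysome 1, the members called higher numbered 2, 1 and 2, and without TG polysome 3 those called lower numbered 5. Over all genes, those called higher in these fits numbered 632, 513 and 528 in place of 1389. Without TG polysome 3 the genes called lower numbered 734 in place of 1673. No call in TG alone marks a difference between genotypes, since the test of that difference called no member.

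**Figure D2:**
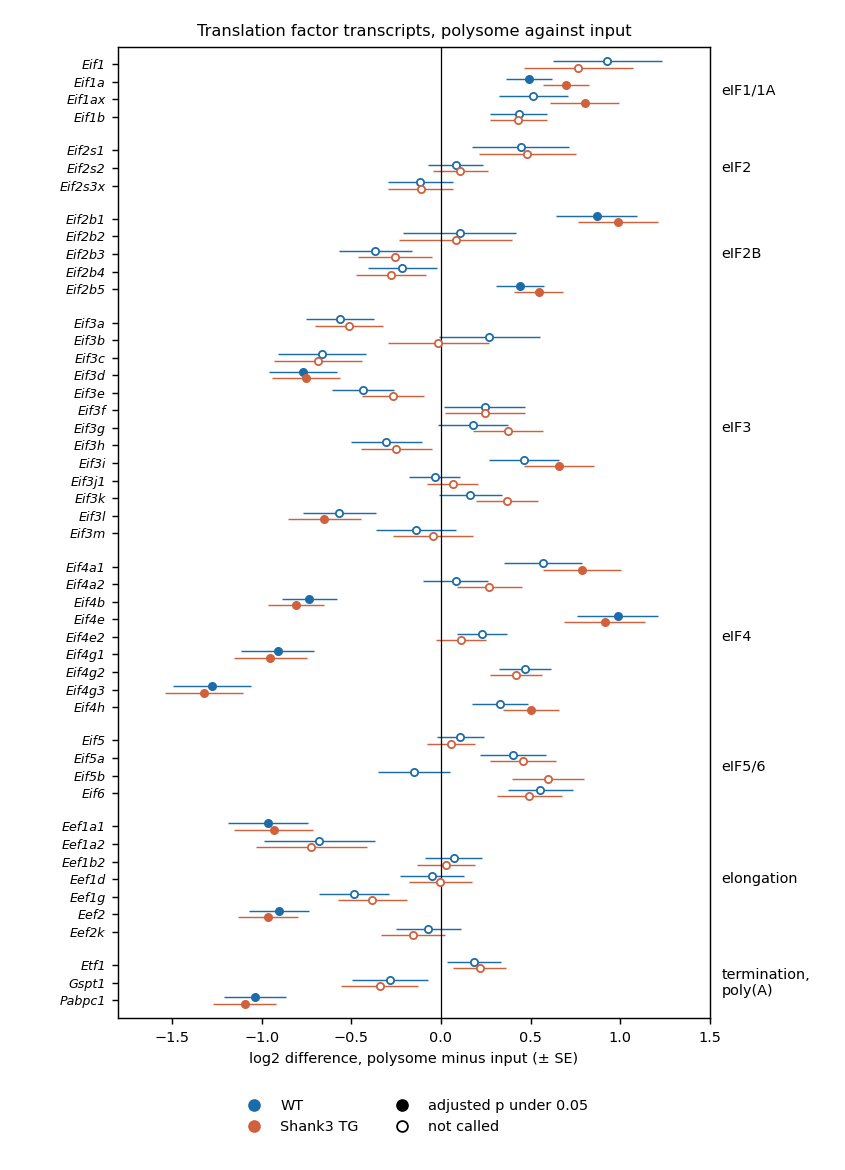
Log2 difference of polysome minus input for the 48 transcripts in WT (blue) and Shank3 TG (orange), with SE bars from the fit of 12 libraries, grouped by role. Filled points are called at an adjusted p under 0.05; Eif4e and Eif2b1 lie farthest right and Eif4g3 farthest left among them.

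The 4 transcripts of eIF1 and eIF1A, small factors that hold the scanning ribosome open and guard start codon choice, all had positive differences in both genotypes (median 0.50 in WT and 0.73 in TG). Eif1a (chromosome 18, 46597701 to 46616456 on GRCm38) had 1412, 1450 and 1374 in WT input and 2042, 1861 and 2063 in WT polysome libraries. Its TG values were 1419, 1264 and 1195 in input and 2121, 2097 and 2067 in polysomes. The 3 polysome libraries lay above the 3 input libraries in each genotype. Eif1a rose by 0.49 ± 0.13 in WT (SE, adjusted p = 0.026) and by 0.70 ± 0.13 in TG (adjusted p = 0.0057). The WT call was lost without WT input 1, 2 or 3 or WT polysome 1 or 3 (adjusted p 0.058, 0.058, 0.095, 0.069 and 0.082).

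Eif1ax, the X-linked eIF1A gene (chromosome X, 159372178 to 159389928), had 6607, 5196 and 5748 in WT input and 9266, 6573 and 9466 in WT polysomes, where WT polysome 2 lay below WT input 1. Its TG values, 6782, 5212 and 5122 in input and 11236, 10342 and 8284 in polysomes, did not overlap. Eif1ax rose in TG by 0.80 ± 0.19 (adjusted p = 0.015), and without TG input 2 or 3 or TG polysome 1 that p was 0.057, 0.061 and 0.066. In WT it differed by 0.52 ± 0.19 (adjusted p = 0.091, and 0.016 with the block). Eif1 had 3350, 4644 and 2262 in WT input and 6181, 7172 and 5483 in WT polysomes, and 3970, 4410 and 1928 and 6275, 5352 and 4953 in the TG fractions. Number 3 was the lowest library of each of these groups. Eif1 differed by 0.93 ± 0.31 in WT (adjusted p = 0.060, 0.011 with the block) and 0.77 ± 0.31 in TG (adjusted p = 0.10, 0.018 with the block). Its paralogue Eif1b ran from 1463 to 1950 in WT input and from 2258 to 2423 in WT polysomes. It differed by 0.43 in each genotype (± 0.16 in the fit without the block), and was called with the block (adjusted p = 0.040 in WT and 0.037 in TG). Without the block Eif1b was called in both genotypes under 75th percentile scaling (adjusted p = 0.049 and 0.048) and in TG without TG polysome 2 (0.56 ± 0.16, adjusted p = 0.038). The ratio of Eif1 to Eif1b per kb ran from 0.829 to 1.28 in WT input and from 1.27 to 1.70 in WT polysomes, and that of Eif1ax to Eif1a from 2.84 to 3.70 and from 2.80 to 3.63, so both ranges overlapped.

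The 3 subunits of eIF2, the factor that brings the initiator tRNA, were not called without the block in either genotype. Eif2s1, the alpha subunit whose phosphorylation lowers initiation, had 1630, 1929 and 1532 in WT input and 2611, 2970 and 1567 in WT polysomes, and 2353, 1789 and 1370 and 2856, 3006 and 1835 in TG. The polysome libraries numbered 3 were the lowest of their groups and lay within the input range. Eif2s1 differed by 0.45 ± 0.27 in WT and 0.48 ± 0.27 in TG, called with the block in TG (adjusted p = 0.041; 0.059 in WT). Eif2s2 and Eif2s3x, the beta and gamma subunits, stood between -0.12 and 0.11 in both genotypes, and 35.3% of the 31-base stretches of Eif2s3x occur in other genes.

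Among the 5 subunits of eIF2B, the exchange factor of eIF2, the alpha subunit gene Eif2b1 and the catalytic epsilon subunit gene Eif2b5 rose in both genotypes. Eif2b1 (chromosome 5, 124570213 to 124579131) had 780, 819 and 578 in WT input and 1313, 1622 and 1056 in WT polysomes. In TG it had 879, 775 and 518 in input and 1460, 1474 and 1280 in polysomes. The number 3 library was the lowest of every group, and the fractions did not overlap. Eif2b1 was 1.83-fold higher in WT (0.87 ± 0.23, adjusted p = 0.026) and 1.98-fold in TG (0.99 ± 0.23, adjusted p = 0.013). Its adjusted p was 0.11, 0.059 and 0.091 in WT without WT input 3, WT polysome 1 or WT polysome 2, and 0.051 in TG without TG input 3.

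Eif2b5 (chromosome 16, 20498817 to 20509323) had 2740, 2749 and 2683 in WT input and 3504, 3986 and 3628 in WT polysomes, and 3104, 2412 and 2713 and 3965, 4177 and 3815 in TG. Input and polysome libraries were apart in both genotypes. Eif2b5 rose by 0.44 ± 0.14 in WT (adjusted p = 0.048) and 0.55 ± 0.14 in TG (adjusted p = 0.018). The WT call was kept only without TG input 1 or TG polysome 3, of 12 fits that each left out 1 library (adjusted p 0.040 to 0.14), and the TG call was lost without TG input 2 or 3 or TG polysome 1 (0.076, 0.055 and 0.059). Eif2b2, Eif2b3 and Eif2b4, the beta, gamma and delta subunits, were not called, at 0.10, -0.37 and -0.21 in WT and 0.083, -0.26 and -0.28 in TG.

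The 13 subunits of eIF3, the large scaffold that holds the small ribosomal subunit, did not move as a unit. In WT 8 had negative and 5 positive differences, with Eif3j1 among the negative ones at -0.035 ± 0.14, which became positive under both rescalings. Of the 31-base stretches of Eif3j1, 38.4% occur in other genes, mainly Eif3j2, and summing the pair gave 0.15 in WT and 0.18 in TG. Eif3d, the subunit that can itself bind the cap (chromosome 15, 77958998 to 77970813), had 2865, 2882 and 3062 in WT input and 1920, 2120 and 1258 in WT polysomes. Its TG values were 2840, 2777 and 3152 and 1878, 1883 and 1477. Every polysome library lay below every input library, and polysome 3 was the lowest in each genotype. Eif3d fell, with a difference of -0.77 ± 0.19 in WT (adjusted p = 0.021) and -0.75 ± 0.19 in TG (adjusted p = 0.019). Its adjusted p was 0.051, 0.082 and 0.071 in WT without WT input 2, WT input 3 or WT polysome 3, and 0.068 and 0.080 in TG without TG input 3 or TG polysome 3.

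Eif3l (chromosome 15, 79075179 to 79094405) had 3311, 4024 and 3863 in WT input and 2787, 3024 and 1880 in WT polysomes, and 3736, 3816 and 3813 and 2720, 2770 and 1863 in TG. The groups did not overlap, and polysome 3 was lowest in both genotypes. Eif3l fell in TG (-0.65 ± 0.20, adjusted p = 0.042) and stood at -0.57 ± 0.20 in WT (adjusted p = 0.080, 0.039 with the block). The TG call was kept only without TG polysome 2, WT polysome 2 or WT polysome 3 (adjusted p 0.023 to 0.17 over the 12 fits).

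Eif3i, which sits with Eif3b and Eif3g in a mobile module (chromosome 4, 129591960 to 129600648), went the other way. It had 3372, 3768 and 2711 in WT input and 4363, 5032 and 4119 in WT polysomes, and 4141, 2837 and 2486 and 5256, 4498 and 4869 in TG. Polysome libraries were above input libraries in both genotypes. Eif3i rose in TG (0.66 ± 0.20, adjusted p = 0.036; 0.11, 0.14, 0.12 and 0.094 without TG input 2, TG input 3, TG polysome 1 or TG polysome 3) and stood at 0.46 ± 0.20 in WT (adjusted p = 0.13, 0.033 with the block).

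With the block, 3 further eIF3 subunits were called lower in WT. Eif3a, the largest subunit, had 5086, 5193 and 5175 in WT input and 4304, 3641 and 2709 in WT polysomes (-0.56 ± 0.19, adjusted p = 0.065, 0.034 with the block), and 4332, 5114 and 5326 and 3532, 4084 and 2822 in TG (-0.51 ± 0.19, 0.079 and 0.043). Eif3c, its partner at the core, had 9422, 8164 and 7704 in WT input and 6726, 6335 and 3498 in WT polysomes (-0.66 ± 0.25, adjusted p = 0.090, 0.023 with the block), and 8056, 8499 and 7943 and 5485, 6337 and 3772 in TG (-0.68 ± 0.25, 0.072 and 0.018). For both genes polysome 3 was the lowest library in each genotype. Eif3e had 3479, 4031 and 3464 and 3052, 2866 and 2246 in the WT fractions (-0.44 ± 0.17, adjusted p = 0.11, 0.033 with the block) and was not called in TG (-0.27 ± 0.17, 0.14 with the block), where input and polysome libraries overlapped. Eif3k was called higher with the block in TG alone (0.37 ± 0.18, adjusted p = 0.047; WT 0.16 ± 0.18, 0.35), from 3369, 3064 and 2438 in TG input and 4080, 3516 and 3776 in TG polysomes. The other 6 subunits ran from -0.31 (Eif3h) to 0.27 (Eif3b) in WT and were called in neither genotype.

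The cap-binding group split by subunit, with the cap-binding protein transcript higher and the scaffold transcripts lower. Eif4e (chromosome 3, 138526179 to 138559696) had 3923, 3502 and 2600 in WT input and 6288, 6152 and 7175 in WT polysomes. In TG it had 4462, 3335 and 2617 in input and 6692, 7787 and 4990 in polysomes. All polysome libraries lay above all input libraries of their genotype, and input 3 was the lowest input library in both. Eif4e was 1.98-fold higher in WT (0.99 ± 0.23, adjusted p = 0.016) and 1.88-fold in TG (0.91 ± 0.23, adjusted p = 0.018). Its adjusted p was 0.080 and 0.063 in WT without WT input 3 or WT polysome 3, and 0.054, 0.075, 0.063 and 0.052 in TG without TG input 2, TG input 3, TG polysome 1 or TG polysome 2. Eif4e2, which encodes the cap-binding repressor 4EHP, stood at 0.23 ± 0.14 in WT and 0.11 ± 0.14 in TG and was not called. The ratio of Eif4e to Eif4e2 per kb ran from 1.98 to 3.62 in WT input and from 4.64 to 4.82 in WT polysomes.

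Eif4g1, the main scaffold that joins eIF4E, eIF4A, eIF3 and Pabpc1 (chromosome 16, 20668313 to 20692884), had 16644, 13772 and 21067 in WT input and 10875, 8663 and 7735 in WT polysomes. Its TG values were 14342, 14813 and 20456 in input and 8263, 9397 and 7743 in polysomes. Here input 3 was the highest and polysome 3 the lowest library in both genotypes, and the fractions did not overlap. Eif4g1 was 1.88-fold lower in WT (-0.91 ± 0.20, adjusted p = 0.015) and 1.93-fold lower in TG (-0.95 ± 0.20, adjusted p = 0.010). The WT p was 0.074 without WT input 3 and 0.061 without WT polysome 3. Eif4g3, its paralogue (chromosome 4, 137993022 to 138208508), had 9849, 6974 and 10626 in WT input and 4088, 3636 and 3432 in WT polysomes, and 6781, 8746 and 12017 and 3198, 4003 and 3555 in TG. It showed the largest difference of the 48, 2.43-fold lower in WT (-1.28 ± 0.22, adjusted p = 0.0046) and 2.50-fold lower in TG (-1.32 ± 0.22, adjusted p = 0.0034), and was called in each of the 12 fits that left out 1 library.

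Eif4g2, the remaining member of the family, encodes a protein that lacks the eIF4E-binding region and serves cap-independent initiation, and it did not fall. It had 21623, 20378 and 18237 in WT input and 28365, 25138 and 29923 in WT polysomes, and 21673, 18380 and 20363 and 28448, 25836 and 26294 in TG. Polysome libraries were above input libraries in both genotypes. Its difference was 0.47 ± 0.15 in WT (adjusted p = 0.050, 0.022 with the block) and 0.42 ± 0.15 in TG (adjusted p = 0.066, 0.029 with the block). As a ratio of levels per kb, Eif4g2 to Eif4g1 ran from 0.622 to 1.06 in WT input and from 1.87 to 2.78 in WT polysomes, and from 0.715 to 1.09 and 1.98 to 2.47 in TG. Eif4e to Eif4g1 went from 0.150 to 0.309 in WT input to 0.703 to 1.13 in WT polysomes. Eif4g1 to Eif4g3, by contrast, moved less, from 2.56 to 3.00 in WT input to 3.42 to 4.03 in WT polysomes.

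The helicase group was also split. Eif4b, the helicase cofactor gene and a TOP transcript (chromosome 15, 102073773 to 102097173), had 8715, 8698 and 8368 in WT input and 5483, 5767 and 4358 in WT polysomes. Its TG values were 8254, 9365 and 8468 and 5260, 5495 and 4218. The input libraries lay close together and all above the polysome libraries, of which number 3 was lowest. Eif4b was 1.66-fold lower in WT (-0.73 ± 0.16, adjusted p = 0.011) and 1.75-fold lower in TG (-0.81 ± 0.16, adjusted p = 0.0066), called in all 12 fits without 1 library.

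Eif4h, a cofactor related to eIF4B (chromosome 5, 134619721 to 134639490), had 12898, 13708 and 13138 in WT input and 15038, 19702 and 15581 in WT polysomes, and 15060, 12170 and 11926 and 19355, 18562 and 17327 in TG. The fractions did not overlap in either genotype. Eif4h rose in TG (0.50 ± 0.16, adjusted p = 0.041) and stood at 0.33 ± 0.16 in WT (adjusted p = 0.17). The TG call was kept only without TG input 1, WT polysome 1, WT polysome 2 or WT polysome 3 (adjusted p 0.025 to 0.13 over the 12 fits). Eif4a1, the general eIF4A helicase (chromosome 11, 69666936 to 69672423), had 9750, 10683 and 8271 in WT input and 14360, 16948 and 11548 in WT polysomes, and 11668, 8897 and 6693 and 15932, 17232 and 13036 in TG. Polysome libraries were higher without overlap. Eif4a1 rose in TG (0.79 ± 0.22, adjusted p = 0.028; 0.071, 0.11, 0.086 and 0.071 without TG input 2, TG input 3, TG polysome 1 or TG polysome 2) and stood at 0.57 ± 0.22 in WT (adjusted p = 0.099, 0.015 with the block). Eif4a2, its paralogue and the more abundant of the pair here, stood at 0.083 ± 0.18 and 0.27 ± 0.18. The ratio of Eif4a1 to Eif4a2 per kb ran from 0.353 to 0.385 in WT input and from 0.494 to 0.577 in WT polysomes. Of the 31-base stretches of Eif4a1, 31.1% occur in other genes, and its pseudogene Eif4a-ps4 had 0 to 385 in WT input and 0 in every WT polysome library.

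**Figure D3:**
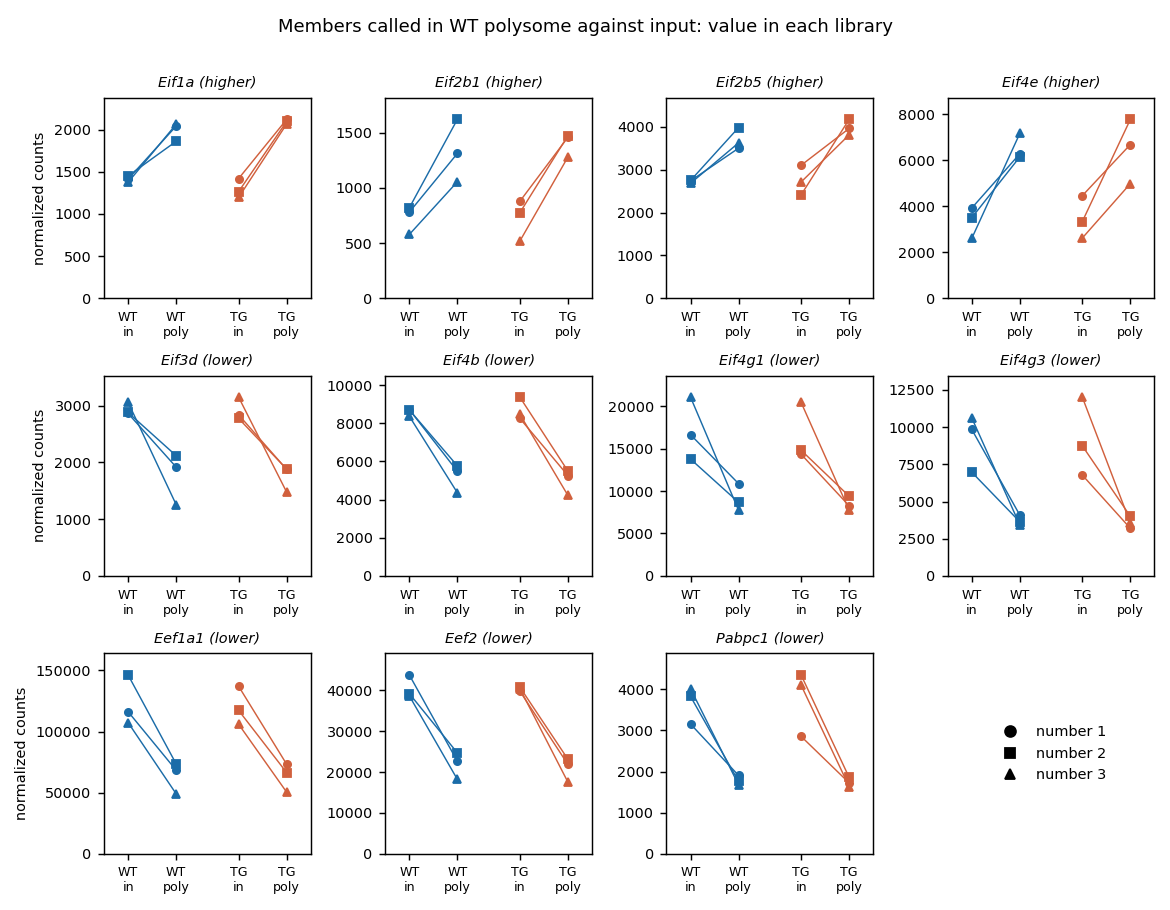
Normalized counts (axis from 0) of the 11 members called in WT polysome against input, in each of the 12 libraries. Lines join the input and polysome library of 1 number and genotype (circle 1, square 2, triangle 3, with WT blue and TG orange). All 4 rising genes rise and all 7 falling genes fall along every line, which follows from fractions that do not overlap in either genotype.

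None of the 4 transcripts of eIF5, eIF5A, eIF5B and eIF6 was called in the fit of all libraries without the block. Eif6, which keeps ribosomal subunits apart, had 1172, 1204 and 1464 in WT input and 1780, 2176 and 1688 in WT polysomes, and 1272, 1233 and 1694 and 2100, 1635 and 2152 in TG, where TG polysome 2 lay below TG input 3. It differed by 0.55 ± 0.18 in WT (adjusted p = 0.060, 0.024 with the block) and 0.49 ± 0.18 in TG (0.079 and 0.032). Eif5a, the hypusine-bearing factor that eases stalled peptide bonds, had 6189, 5971 and 4314 in TG input and 8204, 6810 and 7385 in TG polysomes, and was called with the block in TG (0.46 ± 0.19, adjusted p = 0.048; WT 0.40 ± 0.19, 0.079). Eif5b, the subunit-joining GTPase, was called with the block in TG (0.60 ± 0.20, adjusted p = 0.024) and stood at -0.15 ± 0.20 in WT (0.53), and its values are given with the genotype results. Eif5, the GTPase activator of eIF2, was at 0.11 ± 0.13 and 0.054 ± 0.13. Single alternatives without the block did call 2 of the 4 higher. Without TG input 1, Eif5b was called in TG (0.80 ± 0.19, adjusted p = 0.014), as it was under both rescalings and the stricter filter (adjusted p 0.030 to 0.049). Eif6 was called in WT without TG input 3 (adjusted p = 0.045) and under both rescalings (0.037 and 0.041), and in TG without TG polysome 2 (0.62 ± 0.19, adjusted p = 0.048).

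Elongation factors had 6 negative differences of 7 in each genotype, of which Eef1d turned positive under both rescalings in both genotypes and Eef2k under the 75th percentile scaling in WT. Eef1a1 (chromosome 9, 78478449 to 78489151) had 116280, 146370 and 107400 in WT input and 68356, 73549 and 49034 in WT polysomes. Its TG values were 137080, 117310 and 106000 in input and 73202, 66355 and 50342 in polysomes. Number 3 was the lowest library in each group and the fractions did not overlap. Eef1a1 was 1.95-fold lower in WT (-0.96 ± 0.22, adjusted p = 0.016) and 1.91-fold lower in TG (-0.93 ± 0.22, adjusted p = 0.015). Under quantile normalization it stood at -0.55 in WT and -0.52 in TG (adjusted p 0.087 and 0.097), and without WT input 2 or WT polysome 3 the WT p was 0.058 and 0.065, and 0.068 in TG without TG polysome 3. Of its 31-base stretches 49.8% occur in other genes, and its closest pseudogene in the table, Gm13456, held at most 10.5 normalized counts, so that summing the pair left -0.96 and -0.93.

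Eef2, the translocase (chromosome 10, 81176631 to 81182498), had 43784, 39220 and 38673 in WT input and 22640, 24691 and 18201 in WT polysomes. In TG it had 39797, 40802 and 40454 and 21869, 23132 and 17527. Every input library exceeded every polysome library by a gap wider than the range within a fraction of its genotype. Eef2 was 1.87-fold lower in WT (-0.90 ± 0.17, adjusted p = 0.0069) and 1.95-fold lower in TG (-0.96 ± 0.17, adjusted p = 0.0042), and was called in all 12 fits without 1 library and without all libraries numbered 3 (adjusted p 0.042 and 0.036).

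Eef1a2 had 38215, 28456 and 28027 in WT input and 26243, 23740 and 11914 in WT polysomes, and 32259, 29816 and 28105 and 22424, 22878 and 11722 in TG. The polysome libraries numbered 3 were far below the other polysome libraries. Eef1a2 stood at -0.68 ± 0.31 in WT (adjusted p = 0.16, 0.039 with the block) and -0.72 ± 0.31 in TG (0.12 and 0.028). The Eef1a1 to Eef1a2 ratio per kb ran from 2.54 to 4.30 in WT input and from 2.18 to 3.44 in WT polysomes, which overlap. Eef1g had 10796, 10584 and 8516 in WT input and 7688, 7764 and 5938 in WT polysomes, and 12010, 7889 and 8002 and 7794, 6775 and 6464 in TG. It was called with the block only (-0.49 ± 0.19, adjusted p = 0.017 in WT, and -0.38 ± 0.19, 0.035 in TG), and shares 47.6% of its 31-base stretches with other genes. The other exchange subunits Eef1b2 (0.07 ± 0.16 in WT) and Eef1d (-0.049 ± 0.18) and the kinase Eef2k (-0.071 ± 0.18) were not called.

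Pabpc1, which coats the poly(A) tail and is a TOP transcript (chromosome 15, 36595661 to 36609668), had 3156, 3828 and 4015 in WT input and 1903, 1760 and 1675 in WT polysomes. Its TG values were 2855, 4350 and 4102 in input and 1723, 1856 and 1634 in polysomes. The polysome libraries lay within a narrow range in both genotypes, below every input library, while input 1 was the lowest input library in both. Pabpc1 was 2.05-fold lower in WT (-1.04 ± 0.17, adjusted p = 0.0044) and 2.14-fold lower in TG (-1.09 ± 0.17, adjusted p = 0.0030), called in all 12 fits without 1 library. The release factor genes Etf1 and Gspt1 were not called, at 0.18 ± 0.15 and -0.28 ± 0.21 in WT and 0.22 ± 0.15 and -0.34 ± 0.21 in TG.

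Read by the TOP list instead of by role, 4 of the 13 TOP factors fell in WT (Eif4b, Eef1a1, Eef2 and Pabpc1) and none rose, with a median difference of -0.49, beside 8.59% lower and 5.36% higher of all genes. Of the other 35 members 4 rose and 3 fell (Eif3d, Eif4g1 and Eif4g3), with a median of 0.16. In TG the counts were 4 lower and none higher of 13 (median -0.38), and 4 lower and 8 higher of 35 (median 0.22). All genes stood at 9.86% lower and 8.19% higher in TG. With the block 8 TOP factors were lower and none higher in WT, and 5 of the other 35 were lower and 11 higher, beside 15.9% and 13.9% of all genes. In TG the block gave 7 TOP factors lower and none higher, and 5 of the others lower and 16 higher, beside 16.6% and 16.7%. All genes had medians of 0.026 and 0.030. The TOP list was chosen with earlier results of these data known, so the split is a description and not an independent test. The TOP list was not uniform: Eif3f and Eif3g stood at 0.24 ± 0.23 and 0.18 ± 0.19 in WT, and Eef1b2 at 0.07 ± 0.16, none called. Longer members had slightly lower differences in WT (r = -0.22 and rho = -0.17 over 48, against -0.28 and -0.36 over 16951 genes). Members with a higher input mean also had lower differences, with r = -0.401 and rho = -0.33 in WT and -0.395 and -0.335 in TG over the 48. Input is itself a term of the difference, and the part of input level in the TOP split was not tested. These are descriptions across genes of the same libraries, which are not independent replicates. The 7 falling members had a median exonic length of 4.97 kb, the 4 rising ones 3.38 kb and the uncalled 37 had 3.71 kb, with overlapping ranges.

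For each of the 11 WT-called members the input and polysome libraries did not overlap in either genotype. All 6 same-numbered pairs therefore had to share a direction, and this adds nothing to the calls. The size varied with the number: Eif4g1 differed by -0.61, -0.67 and -1.45 in WT pairs 1, 2 and 3 and by -0.80, -0.66 and -1.40 in TG pairs. Eif3d gave -0.58, -0.44 and -1.28 in WT and -0.60, -0.56 and -1.09 in TG, and Eef1a2 gave -0.54, -0.26 and -1.23 and -0.52, -0.38 and -1.26. For these 3 genes pair 3 was the largest in both genotypes. Libraries numbered 3 held the lowest value of their group for 34 (WT) and 29 (TG) of 48 members in input and for 35 (WT) and 38 (TG) in polysomes, beside 35.9%, 38.9%, 40.3% and 42.1% of all genes. What a number stands for is not given in the sources used here, and the part of number 3 in these results was tested only by leaving it out. Without the 4 libraries numbered 3 the 16 members called in either genotype kept their directions, but only Eif2b1 (higher) and Eef2 (lower) were called in WT, and Eif2b1 and Eif4e (higher) and Eif4b, Eif4g3 and Eef2 (lower) in TG. The differences of the WT members then uncalled stayed at -1.10 for Eif4g3 (adjusted p = 0.0504), -0.92 for Pabpc1 (0.066), -0.88 for Eef1a1 (0.061) and 0.75 for Eif4e (0.070), while Eif4g1 went to -0.64 (0.091) and Eif3d to -0.51 (0.085). Eif4b then stood at -0.63 (limma adjusted p = 0.057), Eif1a at 0.45 (0.13) and Eif2b5 at 0.45 (0.17) in WT. These fits have 8 libraries in place of 12. Over all genes the calls then fell from 2367 to 346 in WT and from 3062 to 484 in TG.

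**Figure D4:**
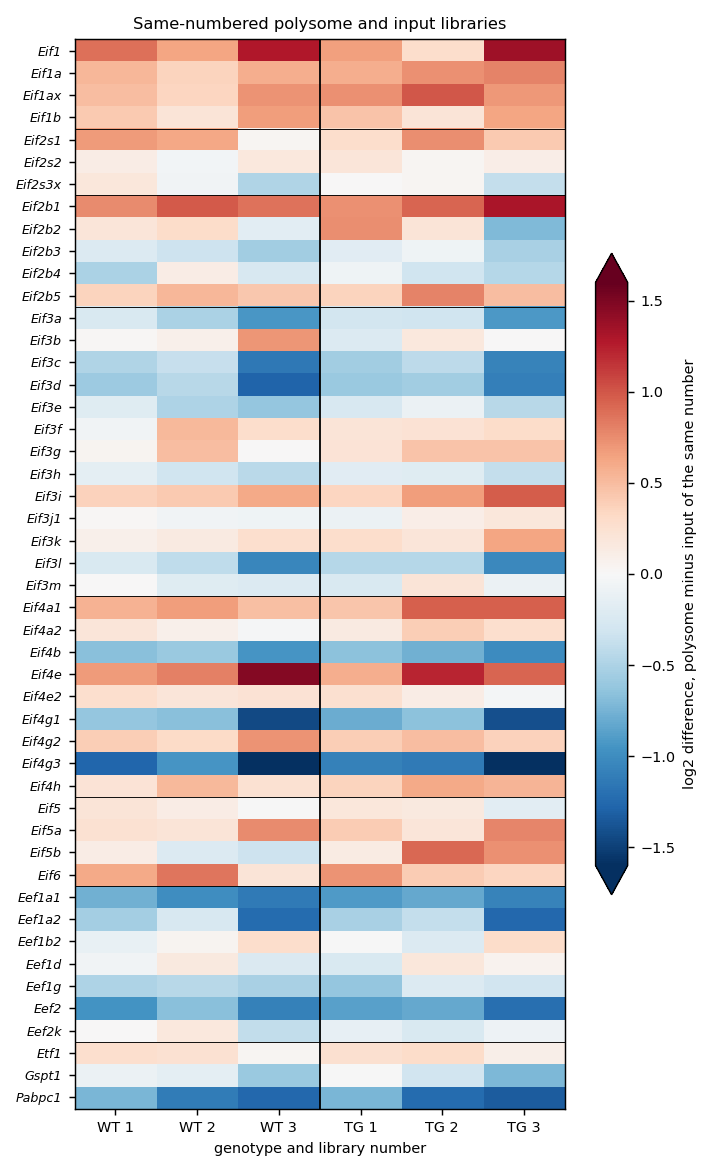
Log2 difference of polysome minus the same-numbered input library for the 48 transcripts (rows, grouped by role) in the 3 WT and 3 TG pairs (columns). Red is higher and blue lower in polysomes; Eif4g3, Eef2 and Pabpc1 are blue and Eif4e and Eif2b1 red in all 6 columns, with the deepest blues in the columns numbered 3.

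The second comparison asked whether the Shank3 transgene went with other levels of these transcripts. No member was called in input or in polysomes (limma), with or without the block, and 1 member in input and 0 in polysomes had an unadjusted p under 0.05. Over all genes the main fits called 0.0% in either fraction (80 genes in input and 53 in polysomes had an unadjusted p under 0.05), and the block called 1 gene of 16312 in polysomes (0.00613%), which was Shank3. In input 46 of the 48 members lay within 0.2 of 0 on the log2 scale (range -0.56 to 0.21), and in polysomes 47 did (range -0.18 to 0.25). With a median SE of 0.17 in input and 0.19 in polysomes, a difference of that size was not detectable. Median differences were -0.015 in input and 0.012 in polysomes, beside -0.0086 and 0.010 over all genes.

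The smallest p among the members belonged to Eif5b in input (chromosome 1, 37998010 to 38055579). It had 1620, 1713 and 1555 in WT input and 1474, 1032 and 892 in TG input, and polysome values of 1755, 1466 and 1231 in WT and 1614, 1953 and 1486 in TG. All TG input libraries lay below all WT input libraries, while the polysome libraries overlapped. Eif5b differed by -0.56 ± 0.20 in input (limma, unadjusted p = 0.026, adjusted p = 1.00, and with the block unadjusted p = 0.0046, adjusted p = 1.00). The same-numbered pairs all pointed down, at -0.14, -0.73 and -0.80. It was the only member whose TG and WT input libraries did not overlap, beside 1.34% of all genes above and 1.5% below. In polysomes it differed by 0.19 ± 0.19. Next in input came Eif1a (-0.13 ± 0.14) and Eif3g (-0.16 ± 0.18), and in polysomes Eif1ax (0.25 ± 0.20) and Eif1 (-0.18 ± 0.17), all with an adjusted p of 1.00. Eif1a was the 1 member with TG polysome libraries all above WT ones (0.077 ± 0.14), beside 1.41% of all genes above and 1.1% below.

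**Figure D5:**
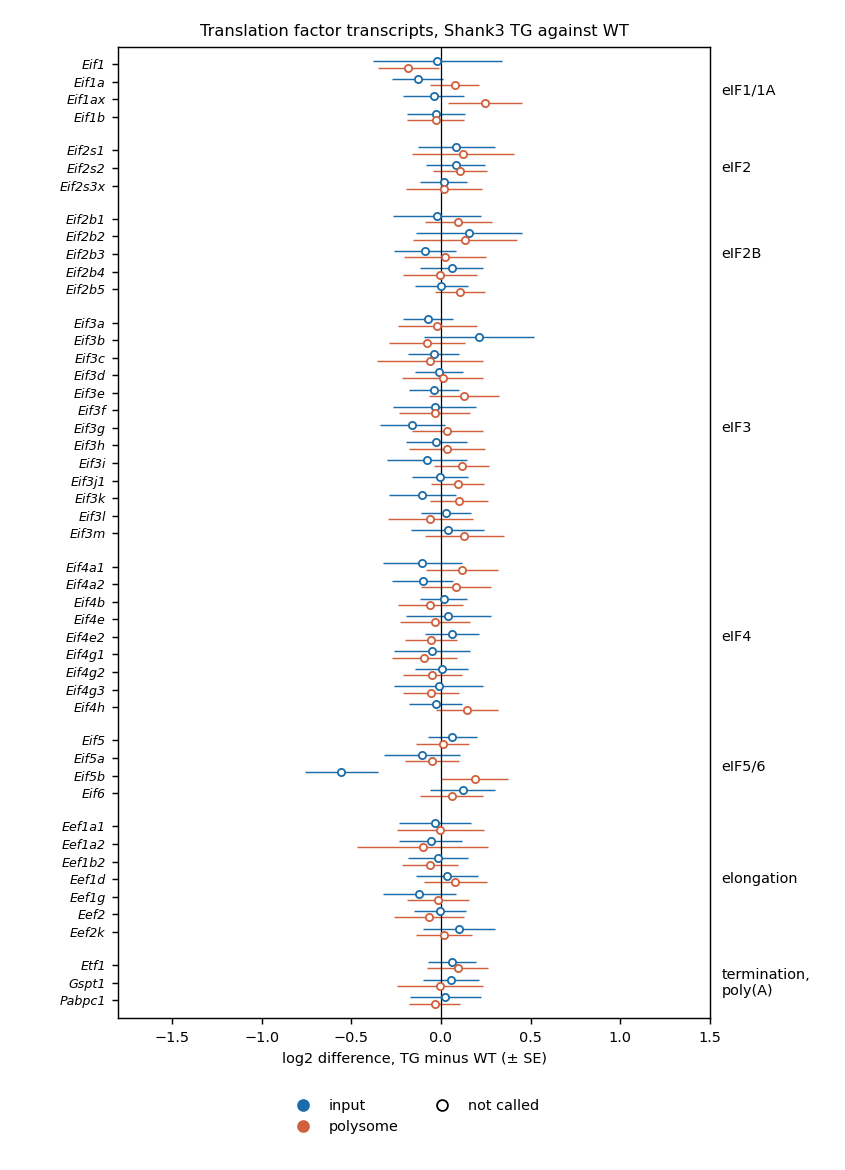
Log2 difference of Shank3 TG minus WT for the 48 transcripts in input (blue) and polysome (orange) libraries, with SE bars from fits of 6 libraries each, on the same scale as the plot of fraction differences. No point is called, and most bars span 0; Eif5b in input lies farthest from 0 at -0.56.

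The third comparison, the interaction, asked whether the step from input to polysomes differed between genotypes. No member and no gene of 16962 was called, with or without the block (limma, 0.0%; 94 genes, 1 of them a member, had an unadjusted p under 0.05). Of the 48 members, 42 lay within 0.2 of 0, with a median SE of 0.27. Eif5b had the smallest p, with an interaction of 0.74 ± 0.28 (unadjusted p = 0.022, adjusted p = 1.00; 0.011 and 1.00 with the block), from a difference of -0.15 in WT and 0.60 in TG. Its TG pairs stood at 0.13, 0.92 and 0.74 and its WT pairs at 0.12, -0.22 and -0.34, so pair 1 was alike in both genotypes. Eif1a (0.21 ± 0.18) and Eif1ax (0.29 ± 0.27) followed. The other uncalled TG and WT differences in the fraction comparison are likewise not shown to differ between genotypes.

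Related genes outside the 48 gave a background for the same libraries. Of 35 regulators of initiation and translation 34 were tested, and 7 were lower and none higher in WT polysomes (median -0.21), beside 8.59% and 5.36% of all genes. The lower ones were Abce1, Abcf1, Cyfip1, Cyfip2, Dhx29, Eif2ak4 and Larp1, and with the block 8 were lower and 2 higher, beside 15.9% and 13.9%. Dhx29, a helicase for structured leaders, was lowest at -1.05 ± 0.21 (adjusted p = 0.0099), and Larp1, the TOP-binding protein, stood at -0.58 ± 0.16 (adjusted p = 0.034). Of these regulators 9 were lower and 2 higher (Mcts1 and Paip2b) in TG, beside 9.86% and 8.19%. Of 10 other elongation, termination and rescue factors, 2 rose and 2 fell in WT, beside 5.36% higher and 8.59% lower of all genes. Dhps (0.78 ± 0.21), which makes the hypusine of eIF5A, and Eef1e1 rose. The Gspt1 paralogue Gspt2 (-1.13 ± 0.22) and the tRNA synthetase Vars fell. In TG 2 were higher and 2 lower, beside 8.19% and 9.86%. With the block 3 were higher and 3 lower in WT, beside 13.9% and 15.9%, and 3 and 4 in TG, beside 16.7% and 16.6%. Of 9 mitochondrial translation factors Tsfm rose (1.09 ± 0.24) and Gfm2 fell (-0.74 ± 0.17) in WT, 1 each way, which is near the WT shares of all genes. No gene of these 3 lists was called between genotypes or in the interaction.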

How the data were processed

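RNA of synaptosomal input and polysome fractions was sequenced in 12 libraries, made with a stranded total RNA kit per the labels' protocols. The authors deposited 1 table of 21492 genes whose signal is a normalized estimated count per gene; the submitters' processing notes name DESeq2 1.26.0, Salmon 1.1.0 and R 3.6.2, and the build GRCm38. Which annotation, gene-level summary and normalization model they used is not given in the sources used here. The values are not whole numbers, so no test of counts was run: only 32.6% to 46.1% of the low values lay within 0.1 read of a whole number of reads, taking the spacing of low values as the value of 1 read (1.26 to 1.80 in input, 0.612 to 0.839 in polysome libraries). Depth is estimated from that spacing, and low genes are measured less precisely in input. Library columns correlated at 0.957 to 0.988, and none was identical to another.

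The fits used limma 3.58.1 (R 4.3.3) with a variance trend, taking log2(value + 1) of genes with a value of at least 10 in at least 3 fitted libraries, two-sided, adjusted by Benjamini-Hochberg over all genes tested with a threshold of 0.05. All 48 members passed the filter. Since fold changes are computed on log2(value + 1), those of low genes are understated. Fractions and the interaction came from 1 fit of 12 libraries, and genotype within a fraction from 6. The fits were tested on simulated data with noise drawn independently for each library. The simulation therefore lacked the shared deviations of same-numbered libraries described below, and does not cover their effect on the fits without the block. Symbols, coordinates, exonic length and shared 31-base sequences came from GENCODE M21 on GRCm38 (21465 identifiers matched), promoters from RefSeq on GRCm38.p6.

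Every group has libraries numbered 1 to 3. Deviations from group means correlated at 0.24 to 0.55 in all 18 same-numbered pairs, so the numbers were taken as pairing the samples. The 36 other pairs lay at -0.41 to -0.00088. Deviations sum to 0 within each group, so positive same-numbered pairs push the others below 0, and these give no separate evidence of pairing. The column names join genotype and number ahead of the fraction, but do not state that the input and polysome libraries of a number share a source. That the numbers pair the samples was therefore read from these values. The main fits had no block, and the fits with the number as a replicate block (within a genotype for fractions and the interaction) stand beside them where they changed a call.

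The members, the role, TOP and related lists and the rule for named genes were chosen with earlier results of these data known. The rule gives every member by role, with values for those called in any comparison with or without the block, or the 3 smallest p-values where none was called, the paralogue pairs side by side, and of other lists the called genes with the largest rise and fall. Alternatives were 75th percentile and quantile scaling, a filter at 50 or none, pseudocounts of 0.5 and 10, a fit with no variance trend, other sets of libraries, the block and each library left out. Leaving out number 3 and summing Eef1a1 with Gm13456 and Eif3j1 with Eif3j2 were added after the data were seen.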

Additional observations from a re-analysis of the deposited data

How the results depend on the processing

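The directions of the 16 called members held under every alternative run. With the replicate block, WT had 11 members higher and 13 lower and 5052 genes called, TG had 16 higher and 5638 genes called, and genotype within polysomes had 1 gene. That gene was Shank3, and the block called no member between genotypes or in the interaction. Scaling to the 75th percentile gave 9 members higher in WT and quantile normalization 7. A fit of only the 6 TG libraries gave 4 members higher and 1700 genes, with Eif2b5, Eif3i, Eif4a1 and Eif4h no longer called higher (adjusted p 0.063 to 0.099) nor Eif3l lower (0.065). The fit of the 6 WT libraries gave 3 higher and 1994 genes, without Eif1a (0.061) and Eif2b5 (0.082) and with Eif1 (0.046). With no variance trend Eif2b5 in WT (0.063) and Eif3i, Eif3l and Eif4h in TG (0.053 to 0.065) were not called, and with no filter Eif2b5 in WT (0.058) and Eif4h in TG (0.057). Quantile normalization ended the Eef1a1 calls (0.087 in WT, 0.097 in TG). Without the libraries numbered 3, WT had 1 member higher, 1 lower and 346 genes, and TG had 2 higher, 3 lower and 484 genes. These fits have fewer samples. For the scalings and the block, the cause was not tested. With each library left out in turn, WT had 0 to 5 members higher, 4 to 8 lower and 648 to 2566 genes, TG had 1 to 9 higher, 5 to 10 lower and 1205 to 3263 genes, and genotype within input, within polysomes and the interaction had 0 to 1, 0 to 1 and 0 to 2 genes. Where this left 1 group with 2 libraries, the spread was pooled over all groups in the fit. Some members uncalled in the main fit were called in such fits (limma). Eif1 was higher in WT without WT input 2 (adjusted p 0.043) or TG input 3 (0.022). Eif3a was lower in WT without WT polysome 1 (0.043) and in TG without WT polysome 3 (0.048). Eif3c was lower in TG without WT polysome 3 (0.026) or TG polysome 2 (0.049).

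Uncalled members near 0 changed sign. Under 75th percentile and quantile scaling these were, in WT, Eif3j1 (0.044 and 0.0054) and Eef1d (0.030 and 0.021), and in TG Eif3m (0.020 and 0.0081) and Eef1d (0.063 and 0.052), with Eef2k in WT (0.0080) and Eif3b in TG (0.050) under the first alone. Without number 3 they were Eif2s3x (0.065 in WT, 0.020 in TG), Eef1b2 (-0.035 and -0.11) and, in WT, Eef1d (0.045) and Eef2k (0.089). Over single libraries left out, the WT ranges were -0.22 to 0.043 for Eif2s3x, -0.064 to 0.40 for Eif2b2, -0.041 to 0.45 for Eif3b, -0.10 to 0.041 for Eif3j1, -0.28 to 0.039 for Eif3m, -0.070 to 0.17 for Eef1b2, -0.17 to 0.098 for Eef1d and -0.25 to 0.090 for Eef2k. In TG they were -0.20 to 0.059 for Eif2s3x, -0.12 to 0.40 for Eif2b2, -0.23 to 0.19 for Eif3b, -0.012 to 0.16 for Eif3j1, -0.19 to 0.13 for Eif3m, -0.0027 to 0.13 for Eif5, -0.055 to 0.091 for Eef1b2 and -0.086 to 0.16 for Eef1d. No member shared over 50% of its 31-base stretches, so that alternative left the 48 as they were. Depth limits low genes most, and all members were well above the filter.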
